A study of Mus musculus with 12 samples.

Results

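Induced pluripotent stem cells (iPSC) are somatic cells returned to a state like that of embryonic stem cells by reprogramming factors. The 4 iPSC arrays of the series were analysed here out of 12 in all. They were chosen by their titles and labels: 2 carried RNA of mouse iPSC labelled Tbx3 null and 2 carried RNA of wild-type mouse iPSC. The other 8 arrays carried RNA of mouse embryonic stem cells (mESC), 4 labelled high and 4 labelled low for Tbx3, and entered here only as a shared estimate of the spread and in one closing comparison. No drug or time point is labelled for any group. The part of Tbx3 that the null allele lacks, the strain, the reprogramming method, the passage, and whether the 2 arrays of a genotype stand for separate clones or cultures were not stated in the labels. If they are not separate, the p-values do not cover the spread between iPSC clones or cultures, and the spread between these arrays may be technical. The spread behind the p-values and standard errors (SE) is pooled over all 12 arrays. It therefore comes mostly from the mESC arrays.

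Tbx3 is a transcription factor of the T-box family, whose members bind DNA through a shared domain and are known mainly as regulators of patterning in the embryo. In mouse pluripotent cells Tbx3 is known as a part of the network that keeps the naive state and also as a factor that can favour extraembryonic endoderm through Gata6. The naive state precedes implantation, and the formative and primed states that follow it carry more DNA methylation and other markers. The comparison asks which transcripts differ between pluripotent cells with and without Tbx3.

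Each value is log2 of an array's processed spot signal minus log2 of the 75th percentile of that array, so 0 stands for a signal at that percentile and 1 unit is a 2-fold difference. The 75th percentile was at a signal of 919 and 696 on the null arrays and of 997 and 911 on the wild-type arrays. Spots well above background made up 63.0% and 62.4% on the null arrays and 68.6% and 68.0% on the wild-type arrays, and 0 spots were saturated. Values of the 2 null arrays correlated at r = 0.995 over the genes tested, those of the 2 wild-type arrays at 0.996, and those of different genotypes at 0.969. The 4 arrays lay side by side on 1 slide with the wild-type arrays in its first columns, so the place on the slide and the genotype cannot be told apart. All 8 pluripotent cell markers examined (Pou5f1, Sox2, Nanog, Sall4, Zfp42, Esrrb, Dppa5a and Utf1) were well above background on all 4 arrays, and their summed linear level was 650 and 675 on the null arrays and 590 and 620 on the wild-type arrays. Of the markers of other cell types, 4 of 9 for fibroblasts (Col1a1, Col1a2, Thy1, Pdgfrb), 2 of 5 for blood and endothelium (Tek, Gata1), 3 of 4 for trophoblast (Cdx2, Gata3, Prl3d1) and 3 of 5 for endoderm (Gata4, Sox17, Sox7) were well above background on all 4 arrays. Postn and Prrx1 among the fibroblast, Spi1 and Cdh5 among the blood and endothelium markers, Elf5 and Ttr were not on any. The summed level of all 9 fibroblast markers was 1.14 and 1.07 on the null arrays and 2.28 and 2.41 on the wild-type arrays. Only Col1a1 and Pdgfrb of the 9 passed as lower. In such bulk RNA, fewer cells of a type and less RNA per cell cannot be told apart.

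The Tbx3 probe, at chr5:120134511-120134570 on the mm9 build, did not read lower in the libraries labelled Tbx3 null. It stood at 5.52 and 5.49 there and at 5.01 and 5.37 in the wild-type libraries. The null arrays were both above the wild-type arrays, by 0.32 ± 0.10 on the log2 scale (SE, 2 arrays a group; limma, Benjamini-Hochberg adjusted p = 0.0337). This call was lost under 9 of 15 alternatives, with adjusted p-values from 0.0563 to 0.416 there, so no direction is drawn from it. Since the deleted part is not given, a transcript that the probe still reads was not tested, and the probe checks the labels neither way. Every direction below therefore rests on the labels alone.

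Of 17547 genes tested, 6728 differed between the genotypes at an adjusted p below 0.05 (38.3%), 3760 of them higher (21.4%) and 2968 lower (16.9%) in the null arrays. The median difference over all genes was 0.06. Small differences made up most of the calls: 692 rose and 1338 fell by at least 2-fold, and 147 rose (0.838%) and 497 fell (2.83%) by at least 4-fold. The counts past 4-fold depended on the background correction and on dim probes. With normexp 58 rose and 155 fell, with the series table's values 61 rose and 180 fell, and with probes above background on all 4 arrays 103 and 252. Of the 195 genes chosen by rule, 60 moved by over 1.5-fold with normexp, 59 of them to a smaller difference. In 6727 of the 6728 the 2 null arrays lay entirely above or below the 2 wild-type arrays, as they did for 71% of all genes. The remaining gene, Sall2, had no value on null array 1, where its spot was marked as an outlier, and was fitted on the other arrays. Of the genes that passed, 366 were not well above background on either null array and 50 on either wild-type array. For these a fold is given as a lower bound within the main processing only. Each dim array was raised to its own detection limit where that was higher. The limit is the weakest signal there that still counted as well above background. With another background correction a difference can be smaller than its bound. The null arrays, with more strong falls than rises, also had the lower share of spots well above background, and the part of this in the falls was not tested.

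The 12 largest falls were led by homeobox, nuclear receptor and X-linked genes that were strongly expressed in the wild-type cells. Crxos, a homeobox gene of the Obox group known from oocytes and embryonic stem cells, stood at -3.30 and -2.91 in the null and at 5.77 and 6.01 in the wild-type arrays, a fall of 510-fold (log2 difference -8.99 ± 0.13). The groups were far apart on this probe and on another Crxos probe, whose signal on the null arrays was below their detection limit (at least 55.6-fold lower). The remaining Crxos probe gave -0.03, with all 4 arrays between -1.57 and -1.32, and the mean of the 3 probes gave -5.45. Nr1h5, a nuclear receptor related to the bile acid receptor, was at 3.72 and 3.36 in wild-type cells and not well above background on the null arrays, at least 489-fold lower. Esr1, the oestrogen receptor alpha gene, was at 1.16 and 1.38 in wild-type cells and at least 101-fold lower in the null. The other 3 Esr1 probes were not well above background in either group. Saa3, an acute-phase serum amyloid gene, was at 1.07 and 1.27 in wild-type cells and at least 94.6-fold lower. With normexp the log2 differences were smaller than these bounds, at -7.195 for Nr1h5, -4.958 for Esr1 and -4.764 for Saa3. Nefm, the medium neurofilament subunit, was at 0.79 and 0.89 in wild-type arrays. It is spotted more than once, and not all of its spots were well above background on either null array, where it stood at -5.24 and -5.32, so the size of its fall is uncertain (-3.995 with normexp). Obox6, a homeobox gene of the Obox group, fell by 5.65 ± 0.12 and the aldo-keto reductase gene Akr1e1 by 5.46 ± 0.12, both well above background on all 4 arrays. The remaining 5 were X-linked and are described with their family. In each of the 12 the adjusted p was at most 5.16e-09 (limma).

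The 12 largest rises had no single family in common. Ubd, the ubiquitin-like modifier FAT10, stood at 2.83 and 2.82 in the null arrays and was not well above background in wild-type cells, at least 388-fold higher. Its log2 difference was smaller than that bound with normexp (6.755) and with the series table (6.598). Myo1f, an unconventional myosin of blood cells, rose from -2.76 and -2.93 to 2.45 and 2.71 (5.43 ± 0.11). Crisp1 and Crisp3, cysteine-rich secretory proteins known from the epididymis and other glands, rose together. Crisp3 moved from -3.11 and -2.81 to 1.40 and 1.43, and Crisp1 was at least 27.3-fold higher. Lrrc6, which is needed to assemble the dynein arms of cilia, was at least 47.9-fold higher, 1110019D14Rik at least 52.1-fold and Fam240b at least 26.0-fold. With normexp these log2 differences were below the bounds too, at 2.807 for Crisp1, 3.578 for Lrrc6, 3.883 for 1110019D14Rik and 2.961 for Fam240b. The null arrays were also higher for Gm1987 (6.06 ± 0.27), LOC100862460 (4.77 ± 0.51), Gm13043 (4.52 ± 0.13) and Pdzrn4 (4.44 ± 0.40), an E3 ligase-like PDZ domain gene. The size is uncertain for Gm1987 (4.26 with normexp), LOC100862460 (4.12) and Pdzrn4 (3.055). The probes of Gm1987 and Gm13043 match several near-identical genes, so which copy was read is uncertain. Gadd45g, a gene of the growth arrest and DNA damage family, rose from -0.93 and -1.13 to 3.07 and 2.96 (4.05 ± 0.11). Like the falls, the 12 were chosen among passing genes whose groups did not overlap. Their adjusted p was at most 4.70e-05 (limma).

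**Figure D1:**
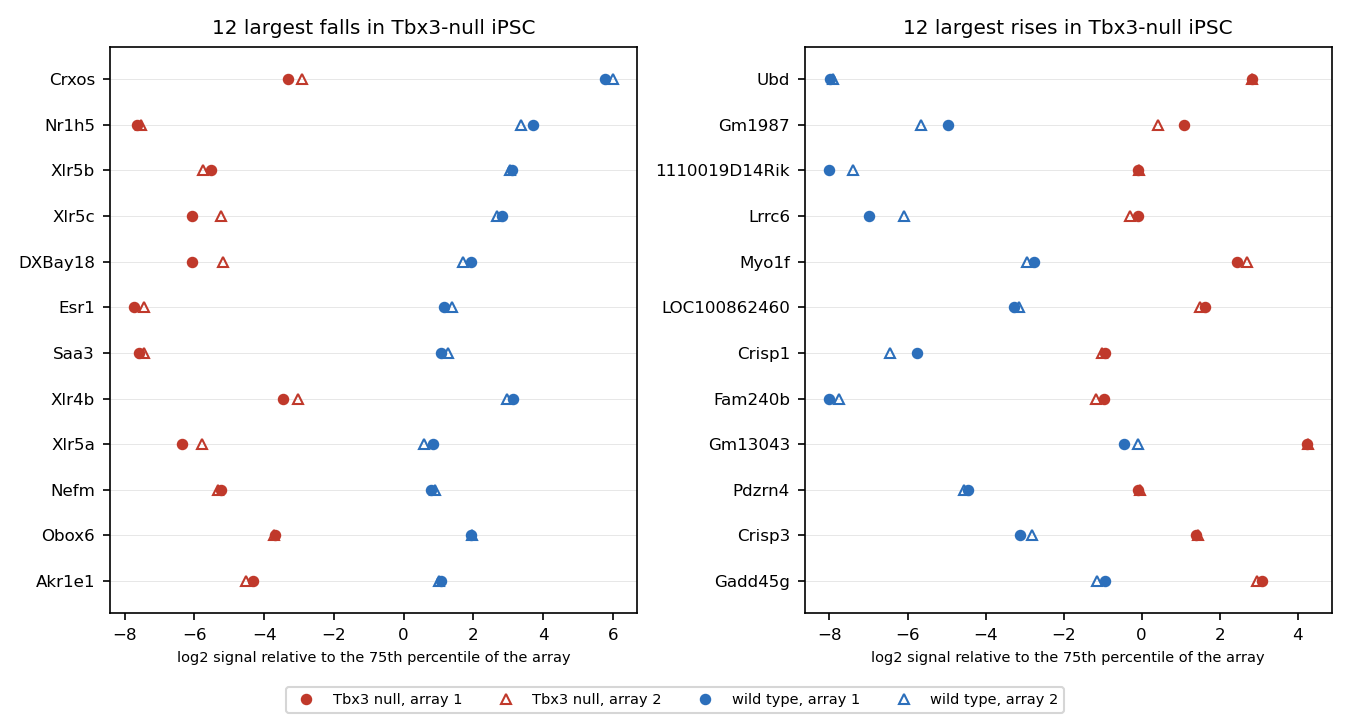
Values of the 12 largest falls (left) and 12 largest rises (right) on each of the 4 iPSC arrays, as log2 signal relative to the 75th percentile of the array. Red marks are Tbx3-null arrays, blue marks wild-type arrays, circles array 1 and triangles array 2 of a genotype. The 24 genes were chosen among those whose genotypes do not overlap, and several dim values near -8 are not well above background.

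The genes that moved most sat at promoters of different CG content, which is shown here for Dazl, a germ cell gene described below, and for the leading fall, the leading rise and Meg3. Each line gives the 250 bases before the transcription start, 5′ to 3′ on the gene's strand, from RefSeq on GRCm38.p6, with CG dinucleotides in capitals.
Dazl: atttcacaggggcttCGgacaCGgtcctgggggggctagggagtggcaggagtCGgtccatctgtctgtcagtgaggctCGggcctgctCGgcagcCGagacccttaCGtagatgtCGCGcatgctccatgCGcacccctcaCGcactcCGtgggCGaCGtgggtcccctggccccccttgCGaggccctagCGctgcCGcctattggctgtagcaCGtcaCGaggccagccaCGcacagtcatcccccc
Crxos: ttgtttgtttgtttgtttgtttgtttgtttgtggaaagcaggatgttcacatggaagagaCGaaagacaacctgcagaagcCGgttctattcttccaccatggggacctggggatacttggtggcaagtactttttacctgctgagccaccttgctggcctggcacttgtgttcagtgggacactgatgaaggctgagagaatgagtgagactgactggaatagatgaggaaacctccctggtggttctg
Ubd: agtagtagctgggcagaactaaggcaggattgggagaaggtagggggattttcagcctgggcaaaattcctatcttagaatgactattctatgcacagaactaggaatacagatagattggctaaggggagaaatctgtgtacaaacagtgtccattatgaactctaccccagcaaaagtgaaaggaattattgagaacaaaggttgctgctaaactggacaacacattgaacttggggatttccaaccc
Meg3: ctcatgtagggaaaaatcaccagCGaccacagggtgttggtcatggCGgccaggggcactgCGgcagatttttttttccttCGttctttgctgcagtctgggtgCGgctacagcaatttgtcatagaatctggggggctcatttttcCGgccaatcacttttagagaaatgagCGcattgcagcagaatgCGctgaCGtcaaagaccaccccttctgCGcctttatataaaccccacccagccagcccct
They lie at chr17:50293621-50293870 on the minus strand for Dazl, and on the plus strand at chr7:15882367-15882616 for Crxos, chr17:37193642-37193891 for Ubd and chr12:109540746-109540995 for Meg3. The Dazl promoter holds 20 CG and 82.3% of all promoters hold fewer. The Meg3 promoter holds 10, the Crxos promoter 2 and the Ubd promoter 0. The median was 5 over the 339 genes with a promoter sequence that fell at least 4-fold, 6 over the 96 that rose at least 4-fold, 14 over the 13227 genes tested that have one and 6 over all 27025 promoters. The germ cell list described below had a median of 14 over 36 promoters. The letters TCACACCT, a T-box half-site, were found on either strand in 1.14% of all promoters, 0.885% of those that fell and 1.04% of those that rose. They were in 0.937% of genes tested and in 5.56% of the germ cell promoters (2 of 36). Among the germ cell genes that fell the share was 4.76% (1 of 21), so both germ cell shares rest on very few genes. The E-box CACGTG was present in 38.9% of the 36 germ cell promoters (14) against 6.04% of all and 7.89% of genes tested. Among the germ cell genes that fell it was in 33.3% (7 of 21), a lower share than in the whole list. The E-box was in 6.49% of the promoters of genes that fell at least 4-fold and 10.4% of those that rose as much. The E2F-type letters TTCCCGCC were in 11.1% of the germ cell promoters (4) against 1.91% of all and 3.14% of genes tested. Among the germ cell genes that fell they were in 14.3% (3 of 21). They were in 1.18% of the promoters of genes that fell at least 4-fold and 0% of those that rose as much. These motifs do not overlap one another in sequence, and a match is a description of letters, not a bound site.

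The Xlr family of X-linked lymphocyte-regulated genes, which encode Sycp3-like chromatin proteins and are known from germ cells and lymphocytes, was lower throughout. All 9 measured members fell, against 16.9% of all genes, with a median of -4.73 against 0.06 over all genes. Xlr5b stood at 3.1 and 3.06 in wild-type arrays and was not well above background on the null arrays, at least 354-fold lower. Xlr5c was at 2.82 and 2.68 in wild-type arrays and at least 281-fold lower, and Xlr5a at 0.85 and 0.58 and at least 68.9-fold lower. With normexp the log2 differences were smaller than these bounds, at -6.331 for Xlr5b, -6.069 for Xlr5c and -4.064 for Xlr5a. Xlr4b stayed measurable on both sides, at -3.46 and -3.02 in null and 3.13 and 2.97 in wild-type arrays (-6.29 ± 0.13). The smallest fall was that of Slx, a relative on the same chromosome, at -1.93. DXBay18, another X-linked transcript, was at 1.93 and 1.69 in wild-type arrays and at least 144-fold lower (log2 difference -4.883 with normexp). Because the probes of Xlr5b, Xlr5c, Xlr4b and DXBay18 match several near-identical genes, the split between copies is uncertain. With probes well above background on all 4 arrays, 5 Xlr members remained in the test and all 5 fell.

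Other clustered families known from the germ line or preimplantation embryos fell in part. Over all genes 16.9% fell and 21.4% rose. All 3 measured members of the Crxos and Obox list fell, although the call of Obox1, which was not well above background on the null arrays, was lost under 6 of the 14 alternatives in which it was measured (adjusted p up to 0.291). Of 5 Pramel genes, leucine-rich repeat genes of which Pramel6 and Pramel7 are known as naive-state factors, 4 fell and 1 rose, Pramel13 at 0.43, whose call was lost without null array 1, without wild-type array 1 and without wild-type array 2. Pramel7 went from 1.69 and 1.84 in wild-type to -3.20 and -2.70 in null arrays (-4.72 ± 0.17), and Pramel6 from 3.08 and 3.03 to -0.52 and -0.69 (-3.65 ± 0.23). Of 14 Rhox genes, the X-linked reproductive homeobox cluster, 6 fell and 2 rose. Rhox2c (-3.35 ± 0.33), Rhox2e (-2.99 ± 0.13) and Rhox10 (-2.49 ± 0.10) were lower, whereas Rhox9 (1.05 ± 0.22) and Rhox6 (1.03) of the same cluster were higher. Of 13 Mage genes, another X-linked family known from testis, 4 fell and 1 rose, with Mageb4 at -3.18 ± 0.14. In 4 of the 13 the null arrays were not well above background, and 2 fell when all 4 arrays had to be above it. The rise of Mageh1 (0.49 ± 0.17) was lost under 7 of 15 alternatives (adjusted p up to 0.204).

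Germ cell, meiosis and piRNA genes were mostly lower. Of 37 measured, 22 fell (59.5%, against 16.9% over all genes), 3 rose (8.11%, against 21.4%) and 12 did not pass, with a median of -0.72. Dazl, an RNA-binding protein needed for germ cell development, stood at -0.54 and -0.46 in null and at 3.71 and 3.46 in wild-type arrays, a fall of 16.9-fold (-4.08 ± 0.15, limma adjusted p = 2.35e-08). Its probe lies at chr17:50418923-50418982 on mm9. Tex101, a germ cell surface glycoprotein, fell by 4.19 ± 0.25 and Sycp1, a rod of the synaptonemal complex, by 3.36 ± 0.17. Asz1, which acts in the piRNA pathway, was not well above background on the null arrays. Smaller falls were those of the meiotic cohesin Smc1b (-2.16), the bromodomain gene Brdt (-1.74), the retinoic acid target Stra8 (-1.38 ± 0.12) and the piRNA-binding Piwil2 (-1.37). Ddx4, the germ cell helicase, fell by 0.45. The 3 that rose were Dmrt1 (0.80 ± 0.11), Hormad1 (0.46) and Dnd1 (0.34), and 1 of the 3 calls held without null array 1. Sycp3, Mael and Prdm1 did not pass, at -0.17, -0.26 and 0.19.

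**Figure D2:**
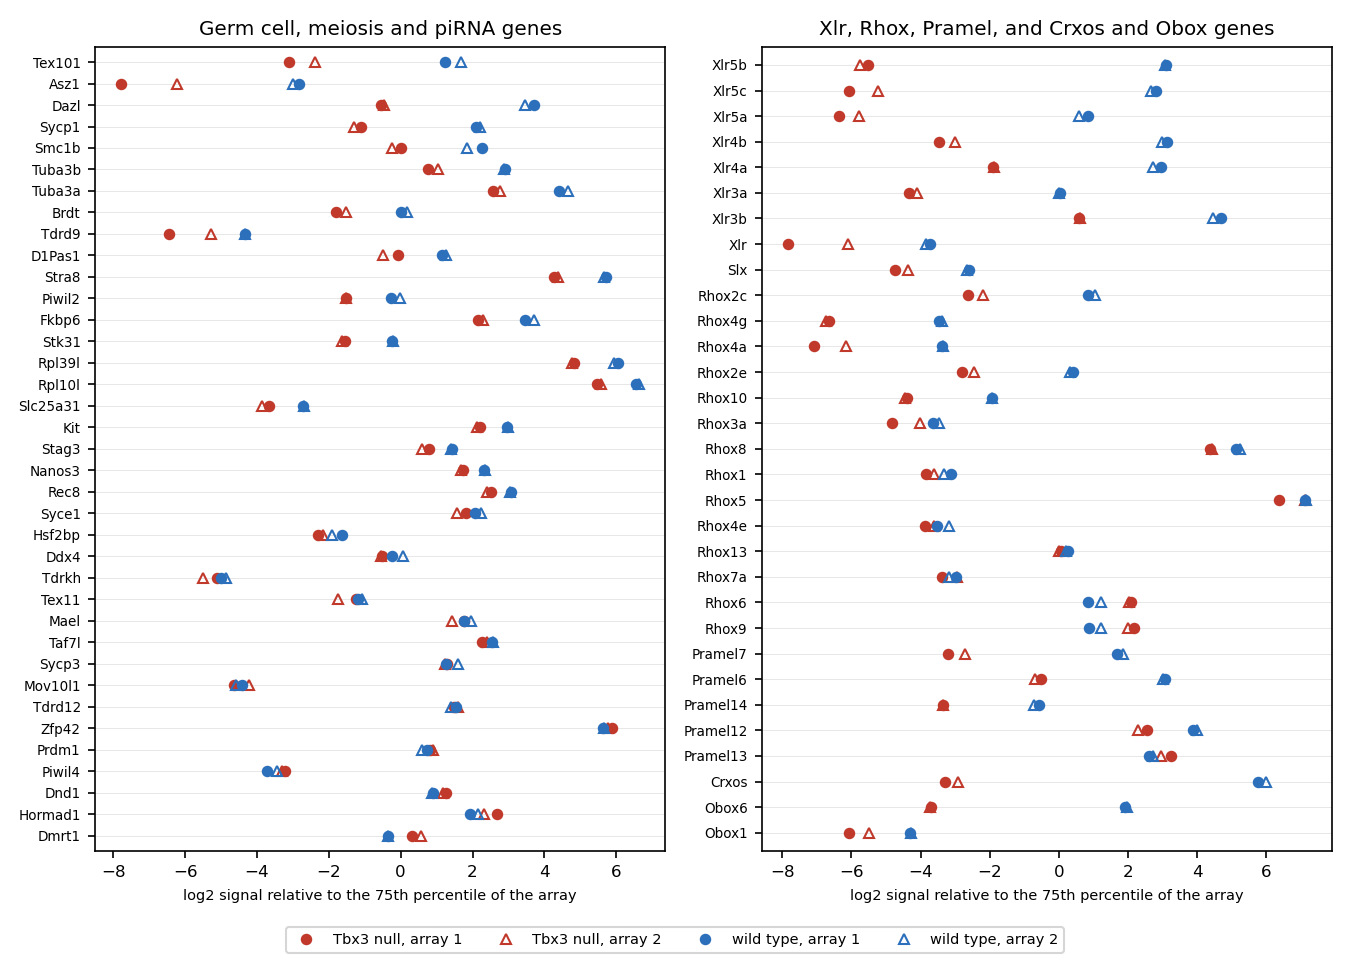
Values of the measured germ cell, meiosis and piRNA genes (left) and of the Xlr, Rhox, Pramel, and Crxos and Obox genes (right) on the 4 iPSC arrays, as log2 signal relative to the 75th percentile of the array. Red is null, blue is wild type, circles are array 1 and triangles array 2. Xlr genes sit left in the null arrays throughout, while Rhox6, Rhox9 and Dmrt1 sit right.

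Most core factors of pluripotency did not pass. Of 22 measured, 5 rose (22.7%, near the 21.4% over all genes), 1 fell (4.55%, against 16.9%) and 16 did not pass (median 0.13). Pou5f1, which encodes Oct4, stood at 4.65 and 4.11 in null and 3.85 and 4.03 in wild-type arrays (0.44 ± 0.22, limma adjusted p = 0.146). Without null array 2 it passed at 0.71 (adjusted p = 0.047). Sox2 was at 0.15 ± 0.10 (adjusted p = 0.244) and Nanog at 0.13 ± 0.08 (adjusted p = 0.242), both from limma. The largest change of the list was in Mycn, the N-myc gene, which rose from 3.47 and 3.14 to 4.93 and 4.66 (1.49 ± 0.16), while Myc itself fell by 0.73 ± 0.12. The RNA-binding repressors of let-7 maturation, Lin28a (0.74 ± 0.12) and Lin28b (0.50 ± 0.12), rose, as did the polycomb gene Phc1 (0.52 ± 0.14) and the co-repressor Trim28 (0.43 ± 0.10). Lin28b did not pass without null array 2 (0.38, adjusted p = 0.0594). Phc1 did not pass without null array 1 (0.31, adjusted p = 0.138) or without wild-type array 2 (0.45, 0.0906), and Trim28 not after quantile normalization (0.24, 0.0818) or in the series table (0.21, 0.167). Sall4, Foxd3, Tdgf1 and L1td1 did not pass here, at 0.32, 0.39, -0.18 and -0.25, but each passed under at least 1 alternative. Dppa2 did not pass at 0.09 but did with the mean of its probes (0.33, adjusted p = 0.0105), the other probe being at 0.56. Utf1, Dppa4, Dppa5a, Rif1, Zfp281, Gdf3 and Terf1 lay between -0.09 and 0.15 and did not pass.

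Naive-state genes moved in both directions. Of 22, 6 rose and 5 fell (27.3% and 22.7%, against 21.4% and 16.9% over all genes; median 0.18). With quantile normalization 2 rose and 8 fell, and with the series table's values 2 rose and 9 fell. The 6 that rose became 2 without wild-type array 1, and 3 without null array 1 or without wild-type array 2. Dppa3, also called Stella, which guards methylation in the early embryo, was the exception in size: it stood at 3.35 and 3.21 in null and -0.12 and -0.08 in wild-type arrays, a rise of 10.4-fold (3.37 ± 0.12, limma adjusted p = 1.55e-08). Its probe lies at chr6:122580207-122580266 on mm9. Klf5 (-0.86 ± 0.10), Spp1 (-0.87 ± 0.12), Pecam1 (-0.73 ± 0.15) and Nr5a2 (-0.66) fell. Klf4, Esrrb, Zfp42 and Tfcp2l1 did not pass, at 0.18, 0.19, 0.17 and -0.44. Of 13 genes of the 2-cell-like state, a rare state of stem cells that resembles the embryo after its first division, 5 rose and 0 fell. Zscan4c rose from 0.89 and 1.17 to 2.98 and 2.79 (1.85 ± 0.18), with Tmem92 at 1.51 ± 0.13 and Zscan4f at 1.29 ± 0.20. The Zscan4 probes match several copies of that cluster. Of 15 genes of the LIF receptor and Stat3 pathway, which supports self-renewal, 3 rose and 6 fell, with the feedback inhibitor Cish at 1.39 ± 0.12 and the repressor Bcl6 at -1.44 ± 0.13. The 6 that fell became 3 without null array 2, and the 3 that rose became 1 without wild-type array 1.

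Formative and primed epiblast genes were mostly higher in the null. Of 21 measured, 12 rose (57.1%, against 21.4% over all genes) and 1 fell (4.76%, against 16.9%). The median was 0.53, and 8 rose at least 2-fold. Foxp1, a forkhead factor, rose from 2.06 and 1.81 to 4.02 and 3.90 (2.02 ± 0.10). Wnt8a rose from -2.49 and -2.18 to -0.45 and -0.22 (2.0 ± 0.31). Sox11 (1.32 ± 0.14), Pim2 (1.28), Zic2 (1.26) and Tcf15 (1.09) followed. The POU factor Pou3f1, also known as Oct6, rose by 0.83. Fgf5, Otx2 and Sox3, which are also known as markers of these states, did not pass, at 0.03, -0.30 and -0.03. The 1 that fell was Lef1 (-0.62 ± 0.15), whose call was lost without null array 2 (-0.50, adjusted p = 0.0692) and without wild-type array 1 (-0.44, 0.0868).

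Neural genes also leaned upwards, with marked exceptions among the neurofilaments. Of 21 measured, 11 rose (52.4%, against 21.4% over all genes) and 4 fell (19%, near the 16.9% over all genes), with a median of 0.39. Ina, the neuronal intermediate filament protein alpha-internexin, stood at 3.92 and 3.70 in null and 0.11 and 0.21 in wild-type arrays (3.65 ± 0.09, limma adjusted p = 1.60e-09), on a probe at chr19:47098781-47098840 on mm9. Another Ina probe gave 3.90. Pax6, the eye and neural homeobox factor, stood at -2.43 and -2.11 in null and at -5.59 and -5.88 in wild-type arrays, where not all of its spots were well above background, so the size of its rise is uncertain (1.69 with normexp). Gap43 (2.33) and Crmp1 (2.26), which act in axon growth, rose, as did the neuronal tubulin Tubb3 (1.54). The 4 that fell were Nefm, Nefl (-2.29), the adhesion molecule Nrcam (-2.49 ± 0.10) and Stmn2 (-0.32). Over the 5 defining neuron markers Tubb3, Nefl, Nefm, Stmn2 and Snap25 the summed linear level was 38.2 and 42.2 in the null and 57.4 and 62.5 in the wild-type arrays.

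Genes of the primitive streak, the T-box family and the Hox clusters fell where they changed, apart from Tbx6. Of 14 streak and mesendoderm genes, 6 fell (42.9%, against 16.9% over all genes) and 1, Tbx6, rose (7.14%, against 21.4%). T, the Brachyury gene that marks the primitive streak, stood at -3.33 and -2.73 in null and 0.40 and 1.21 in wild-type arrays (-3.83 ± 0.37). Eomes, a T-box factor of the streak and trophoblast, fell by 1.66 ± 0.15 and the homeobox gene Evx1 by 2.01 ± 0.36. Of the 15 T-box relatives of Tbx3 that were measured, 4 fell (26.7%), 1 rose (6.67%) and 10 did not pass. With the iPSC arrays alone 8 fell and 0 rose, Tbx5, Tbx18, Tbx20 and Tbr1 being added to the falls, and with normexp 2 fell. Besides T and Eomes these were Tbx2, the closest relative of Tbx3, and Tbx15, both not well above background in the null, at least 1.52-fold and at least 1.15-fold lower. With normexp background correction Tbx2 was at -0.14 (adjusted p = 0.42) and Tbx15 at 0.03 (0.861). Tbx6 rose by 0.75 ± 0.24, a call lost under 7 of 15 alternatives (adjusted p up to 0.258). The other 10 (Tbx1, Tbx4, Tbx5, Tbx10, Tbx18, Tbx20, Tbx21, Tbx22, Tbr1 and Mga) lay between -1.16 and 0.08, and Tbx5, Tbx18 and Tbr1 among them were not well above background in the null arrays. Of 26 Hox genes, 11 fell (42.3%, against 16.9% over all genes) and 0 rose. Hoxc13 (-1.54 ± 0.11) and Hoxc4 (-1.45 ± 0.18) were among the falls. In 8 of the 26 the null arrays were not well above background, and 4 fell when all 4 arrays had to be above it. The 11 became 6 without null array 1 and 7 without wild-type array 2.

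Genes of primitive endoderm, the extraembryonic layer that gives rise to the yolk sac, were the other large group that fell. Of 27 measured, 16 fell (59.3%, against 16.9% over all genes), 4 rose (14.8%, against 21.4%) and 7 did not pass (median -0.90). Gata6, the transcription factor that specifies this layer, stood at -4.49 and -4.50 in null and -2.41 and -2.77 in wild-type arrays, a fall of 3.75-fold (-1.91 ± 0.19, limma adjusted p = 2.25e-05). With normexp the fall was -0.91 and in the series table -1.15. Cited1 (-2.16 ± 0.12) and the basement membrane linker Nid1 (-2.10 ± 0.11) fell, and so did the collagens Col4a1 (-1.39 ± 0.15) and Col4a2 (-1.19) and the laminin Lama1 (-1.30). Afp, the alpha-fetoprotein gene, and the receptor gene Pdgfra were not well above background in the null arrays. Gata4 (-0.01) and Sox7 (0.20), which act beside Gata6, did not pass. The 4 that rose were Amn (0.79 ± 0.13), Lrp2 (0.74), Apoe (0.58) and Sparc (0.45). Afp, Gata4, Sox7, Sox17 and Ttr, taken as markers of endoderm cells, summed to 0.307 and 0.300 on the null arrays and 0.400 and 0.403 on the wild-type arrays, and Ttr was not well above background on any.

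Collagen and mesenchymal genes fell in part, together with some markers of fibroblasts. Of 25 matrix and adhesion genes, 8 fell (32%, against 16.9% over all genes) and 4 rose (16%, against 21.4%). The metalloproteinase inhibitor Timp2 was at -1.91 ± 0.14 and the adhesion molecule Ncam1 at 0.99 ± 0.10. Of 19 fibroblast and feeder markers, 6 fell (31.6%) and 4 rose (21.1%, near the share over all genes). Col1a1 stood at -2.25 and -2.22 in null and 0.03 and 0.16 in wild-type arrays (-2.33 ± 0.15), with Pdgfrb at -2.23 ± 0.14 and Col5a1 at -1.79 ± 0.12. The part of feeder or fibroblast RNA in these falls was not tested. Of the 9 fibroblast markers, Col1a2 (-0.04), Thy1 (0.17), Col3a1 (-0.52) and Dcn (-0.31) did not pass. Postn and Prrx1 were not well above background on any array. Lum passed as higher, at -5.27 and -5.11 in null arrays. It was not well above background on the wild-type arrays, so the size of its rise is uncertain. The 4 that rose became 1 without null array 1 or without wild-type array 1, and 2 without wild-type array 2. Of 19 epithelial genes, 5 rose and 5 fell (26.3% each, against 21.4% and 16.9% over all genes). The splicing regulator Esrp1 rose by 2.41 ± 0.15 and the tight junction gene Cldn6 by 1.95 ± 0.22. Ocln fell by 1.62 ± 0.18 (-2.43 with the mean of its probes) and the keratin Krt19 by 2.58 ± 0.26. The 5 that fell became 3 without wild-type array 1 and 3 without wild-type array 2. Of 19 trophectoderm genes 6 rose (31.6%) and 7 fell (36.8%), with Tfap2a at -2.57 ± 0.24. Of 10 endothelial and blood markers 2 rose and 2 fell (20% each, near the shares over all genes). Lmo2 at -1.57 ± 0.11 and Gata1 at 1.10 ± 0.23 were among them. Fewer rose without null array 1 or without wild-type array 2.

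Over all genes 21.4% rose and 16.9% fell, and the signalling lists are given beside those shares. Of 20 genes of FGF-ERK feedback, 9 fell and 4 rose, with the inhibitors Spry2 (-1.83 ± 0.17) and Spry4 (-1.05 ± 0.12) and the ETS factor Etv4 (-1.21 ± 0.25) lower and the phosphatase Dusp5 (1.44 ± 0.25) higher, and the 4 that rose became 2 without null array 1 or without wild-type array 1. Of 23 Wnt genes, 8 fell and 4 rose, led by T and by the secreted Wnt inhibitor Wif1 (-2.52 ± 0.13), and the 4 that rose became 2 without wild-type array 1. Dkk1, another secreted inhibitor, was at -2.19 ± 0.53, but at -0.62 with normexp and -0.83 with the series table. It did not pass without null array 1 (-1.83) or without wild-type array 2 (-1.90). Of 14 Nodal-Activin genes, 5 fell and 4 rose: Inhbb (-1.35 ± 0.19) and the activin trap Fst (-1.33 ± 0.13) were lower and the Nodal inhibitor Lefty1 higher (1.08 ± 0.18). The 4 that rose there became 2 without null array 1 or without wild-type array 1. Of 18 BMP genes, 4 rose (22.2%) and 3 fell (16.7%), near the shares over all genes, and the Id genes, known BMP targets, went both ways, with Id2 and Id4 at 1.18 each and Id1 at -1.01 ± 0.18, and the 3 that fell became 1 without null array 2. Of 18 retinoic acid genes, 5 rose and 6 fell, with the retinal reductase Dhrs3 at -2.15 ± 0.13 and the retinol carrier Rbp4 at -1.69 ± 0.17, and the 5 that rose became 3 without null array 1. The retinoic acid hydroxylase Cyp26a1 was higher by 1.78 ± 0.47, a call lost without null array 1 (1.78, adjusted p = 0.0574), without null array 2 (1.77, 0.0524) and without wild-type array 1 (1.68, 0.0704).

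Genes that write or regulate DNA methylation were higher where they changed, with 1 exception. Of 23, 8 rose (34.8%, against 21.4% over all genes) and 1 fell (4.35%, against 16.9%), with a median of 0.19. Besides Dppa3 these included Uhrf2 (1.31 ± 0.11), which stood at 3.26 on both null arrays and 1.91 and 1.99 on the wild-type arrays, and the de novo methyltransferase gene Dnmt3b (1.12 ± 0.11) with its cofactor Dnmt3l (1.07). Dnmt1, Uhrf1 and Tet1 did not pass, at 0.30, 0.10 and 0.09. The 1 that fell, Apobec1 (-0.40 ± 0.12), lost its call under 4 of 15 alternatives (adjusted p up to 0.183). Of 24 polycomb genes, which silence developmental genes through histone marks, 10 rose and 5 fell, and the 10 became 6 without null array 1. Among the chromobox subunits, Cbx8 (-1.76 ± 0.16) fell and Cbx6 (0.95 ± 0.09) rose. The 2 probes of Cbx7 disagreed, at 1.20 and -1.20.

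Imprinted genes, which are expressed from 1 parental copy, moved in both directions. Of 35 outside the Dlk1-Meg3-Dio3 cluster, 12 were higher (34.3%, against 21.4% over all genes) and 7 lower (20%, against 16.9%). The 7 became 4 without wild-type array 1. Peg3, a paternally expressed zinc finger gene, rose from -1.51 and -1.93 to 1.70 and 1.56 (3.35 ± 0.20). Grb10, an adaptor that limits growth signalling, was at -1.19 and 0.32 in null and -3.39 and -3.11 in wild-type arrays (2.82 ± 0.36; 3.58 without null array 1 and 2.06 without null array 2), and Phlda2, a placental growth limiter, at 1.85 and 2.78 against -0.25 and -0.49 (2.68 ± 0.26). Plagl1, a zinc finger gene, fell from 5.21 and 5.24 to 3.67 and 3.11 (-1.84 ± 0.16, or -1.14 with the mean of its probes), and Ddc by 1.69. Several of these genes differed between the 2 null arrays more than between the wild-type arrays. In 4 of the 35 the null arrays were at least 2-fold apart (H19, Grb10, Cdkn1c and Sgce), and in 0 the wild-type arrays. Over all genes the share was 0.672% between the null arrays (118 genes) and 0.747% between the wild-type arrays (131 genes). H19 stood at 1.84 on null array 1 and 0.11 on null array 2, against 0.49 and 0.36 in wild-type cells. Sgce was higher on null array 1 (0.59 against -0.41), whereas Cdkn1c, a cell cycle inhibitor, was higher on null array 2 (1.39 against 0.26), as were Grb10 and Phlda2.

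The largest difference between the 2 null arrays lay in the Dlk1-Meg3-Dio3 cluster on chromosome 12, where Meg3 and linked noncoding RNAs are expressed from the maternal copy and Dlk1 and Dio3 from the paternal copy. Meg3 stood at 3.73 on null array 1, near the 4.36 and 4.09 of the wild-type arrays, and at -4.79 on null array 2. The difference between the genotypes therefore did not pass (-4.76 ± 1.90, limma adjusted p = 0.0725). It did pass with normexp background correction, the series table and the intensity trend (adjusted p from 0.0184 to 0.0262). Without null array 1 it was -9.01 (adjusted p = 1.69e-08). The probe reads, at chr12:110809678-110809737 on mm9, 5′ to 3′:
Meg3 probe: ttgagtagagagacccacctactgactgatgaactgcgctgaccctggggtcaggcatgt
It is shown because the array values at it set the null arrays apart. The 2 other Meg3 probes gave 0.15 and 0.34 below the wild-type mean on null array 1, and were not well above background on null array 2, at least 40.6-fold and at least 13.1-fold lower there. Downstream transcripts did the same. 6430411K18Rik, at -1.24 on null array 1 and -1.05 and -1.42 in wild-type arrays, was not well above background on null array 2, and neither was 1110006E14Rik, which stood at 0.22 on null array 1. Of 3 probes for Mirg, a host transcript of microRNAs, 2 were lower by 6.37 and 7.16 on null array 2 and the third, upstream of them, was not (-0.04). Dlk1 was at -0.72 on null array 1 and -3.04 on null array 2, with wild-type arrays at -0.16 and -0.38. It passed as lower in the null (-1.61 ± 0.53, limma adjusted p = 0.0336), a call lost without wild-type array 1 (-1.50, adjusted p = 0.14) and without wild-type array 2 (-1.72, 0.0845). Dio3 lay apart from this, at -2.92 and -3.09 in null and -2.09 and -1.74 in wild-type arrays (-1.09 ± 0.22).

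Counting all probes from the region, named or not, 83 were well above background in at least 1 genotype. Of these, 32 were at least 4-fold below the wild-type mean on null array 2 and less than 4-fold below it on null array 1, and 0 showed the reverse. The region was examined with this gap between the null arrays already seen. How many probes of the whole array meet the same rule was not counted. The 32 ran from 111 kb before the Meg3 probe to 178 kb beyond it, between positions 110698502 and 110987628 of chromosome 12 (mm9), where 66 probes were measured. On null array 1 the same 32 lay between -0.90 and 0.30 around the wild-type mean. On null array 2, 24 of the 32 were not well above background.

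**Figure D3:**
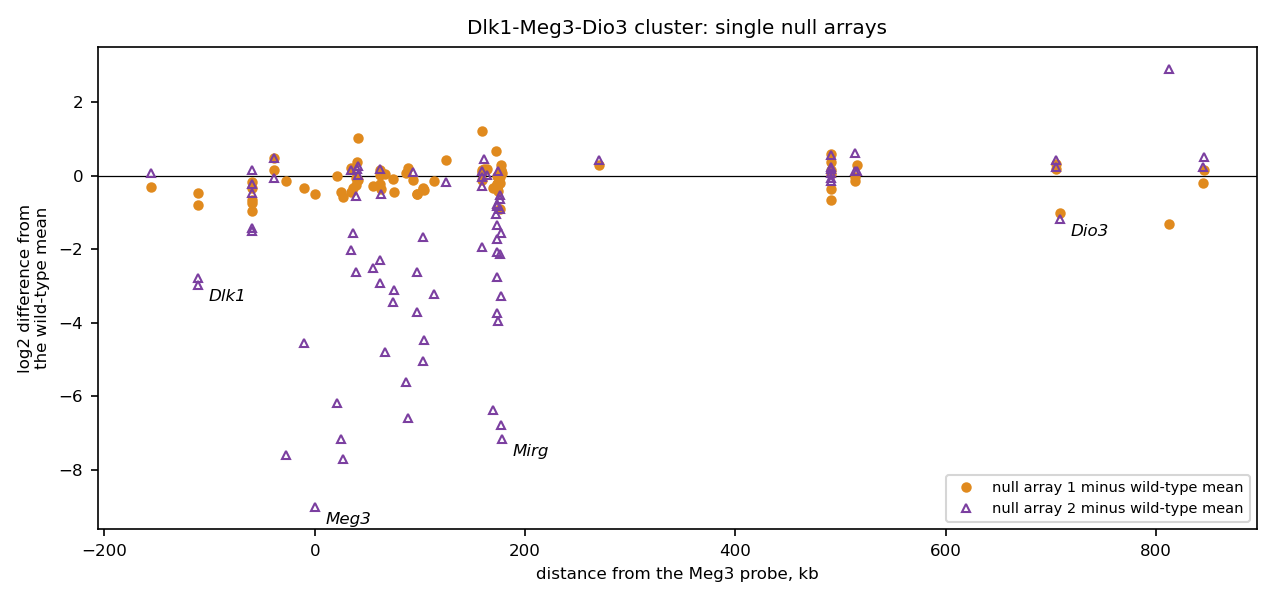
Difference of each null array from the wild-type mean (log2) for the 83 probes of the Dlk1-Meg3-Dio3 region, by distance from the Meg3 probe in kb. Orange circles are null array 1 and purple triangles null array 2. From Dlk1 to Mirg many triangles lie far below 0 while the circles stay near it, and at Dio3 both null arrays are about 1 unit low.

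**Figure D4:**
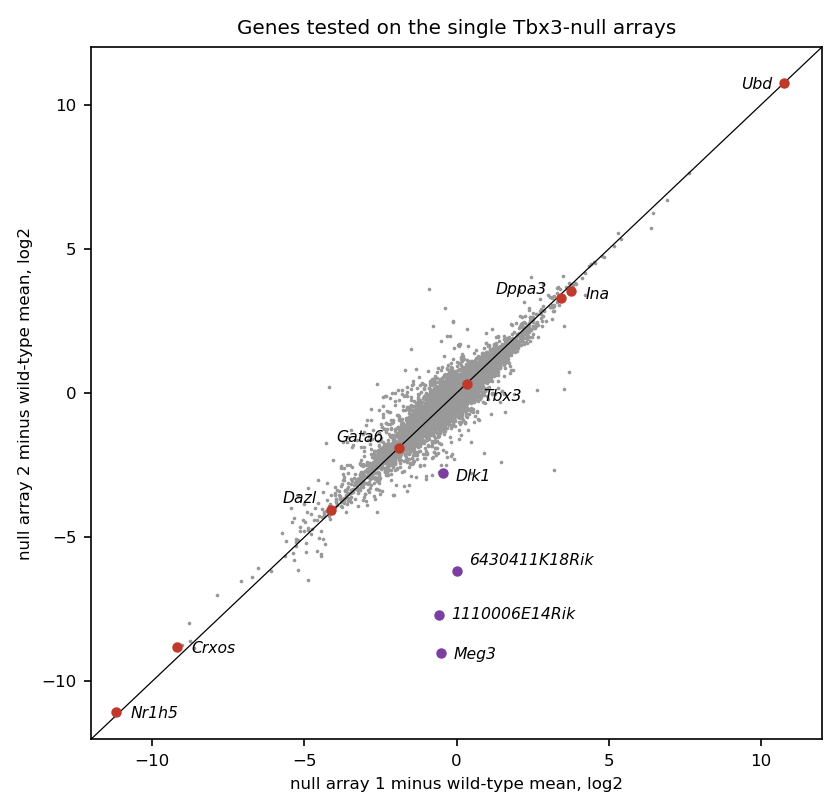
Null array 1 (horizontal) and null array 2 (vertical), each minus the wild-type mean on the log2 scale, for the genes tested. Genes near the diagonal moved alike on both null arrays, such as Ubd, Ina, Dppa3, Dazl and Crxos. Meg3, 1110006E14Rik, 6430411K18Rik and Dlk1 (purple) lie below it.

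Outside the cluster, 9 further genes had the widest gaps between the null arrays. On null array 2, 5031425F14Rik (-1.27 against -5.78), Runx2 (-2.35 against -5.70), Cox8b (-2.65 against -5.76), Gm2115, Trex2 and Trpv6 were higher than on null array 1. On null array 1, Fbxw22 (-1.55 against -7.41), LOC552873 (-1.69 against -5.06) and Sh3rf2 (-1.29 against -4.25) were higher. None of these 9 passed between the genotypes in the main fit (limma, adjusted p above 0.05). They were chosen for a wide gap between the null arrays, which itself widens the spread in that test. With normexp, 5031425F14Rik, Runx2, Gm2115, Sh3rf2, LOC552873 and Fbxw22 passed as higher (limma adjusted p from 0.00137 to 0.037). Sh3rf2 also passed with the series table (0.0114). All 9 lay below -4 on both wild-type arrays.

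Respiratory chain genes rose in small steps where they passed. Over all genes 21.4% rose and 16.9% fell. Of 28 respiratory chain subunits, 11 rose (39.3%) and 0 fell, each by under 2-fold, with Ndufa1 at 0.52 ± 0.08 and Sdhb at 0.43 ± 0.09. The 11 became 3 after quantile normalization and 5 without null array 1 or without wild-type array 1, so the count depends on the scaling. Of 20 genes of threonine, serine, glycine and one-carbon metabolism, 8 rose and 2 fell, with Psat1 at 0.80 ± 0.11, Shmt1 at 0.81 ± 0.08 and Aldh1l2 at -1.16 ± 0.16, and the 8 became 5 without null array 1. Of 27 glycolysis and hypoxia genes, 4 rose and 3 fell, led by Ndrg1 at 1.67 ± 0.23, and the 4 became 2 without wild-type array 2. In this list the array number moved with the values: 22 of 27 genes (81.5%) were higher on array 1 than on array 2 in both genotypes, against 26% of all genes. Bnip3, a hypoxia-induced mitochondrial protein, stood at 5.14 and 4.57 in null and 5.34 and 4.52 in wild-type arrays, and the lactate exporter Slc16a3 at 4.03 and 3.18 against 4.29 and 3.32. Neither differed between genotypes by the test. Of 26 cell cycle genes, 5 rose (19.2%, near the share over all genes) and 2 fell (7.69%), with Ccne1 at 0.70 ± 0.09 and Cdkn1c at 1.53 ± 0.27. The 2 that fell became 7 after quantile normalization and 1 without null array 1 or without wild-type array 2.

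Of 21 p53 targets, 4 rose and 4 fell (19% each), near the 21.4% and 16.9% over all genes, with the pro-apoptotic Pmaip1 (Noxa) down from 3.93 and 4.02 to 2.10 and 2.09 (-1.88 ± 0.11). The 4 that rose became 1 without null array 1 or without wild-type array 1 and 2 without null array 2, while the 4 that fell became 7 with quantile normalization, the scaling over probes above background, or the series table. Among 19 heat shock and immediate early genes there were 4 rises and 4 falls (21.1% each), with Klf6 at 1.37 ± 0.08 and Atf3 at -1.33 ± 0.12. The 4 falls became 2 with normexp or with all 4 arrays above background. Of 21 interferon response genes, 9 fell (42.9%) and 2 rose (9.52%). Irgm1, an interferon-inducible GTPase, fell by 2.14 ± 0.26 and the immunoproteasome subunit Psmb9 by 1.53 ± 0.11, whereas Bst2, the virus tether called tetherin, rose from 1.97 and 1.90 to 3.95 and 3.76 (1.92 ± 0.10). Ifih1 and Gbp3 were not well above background in the null arrays. The 2 that rose became 1 without null array 1 or without wild-type array 1.

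**Figure D5:**
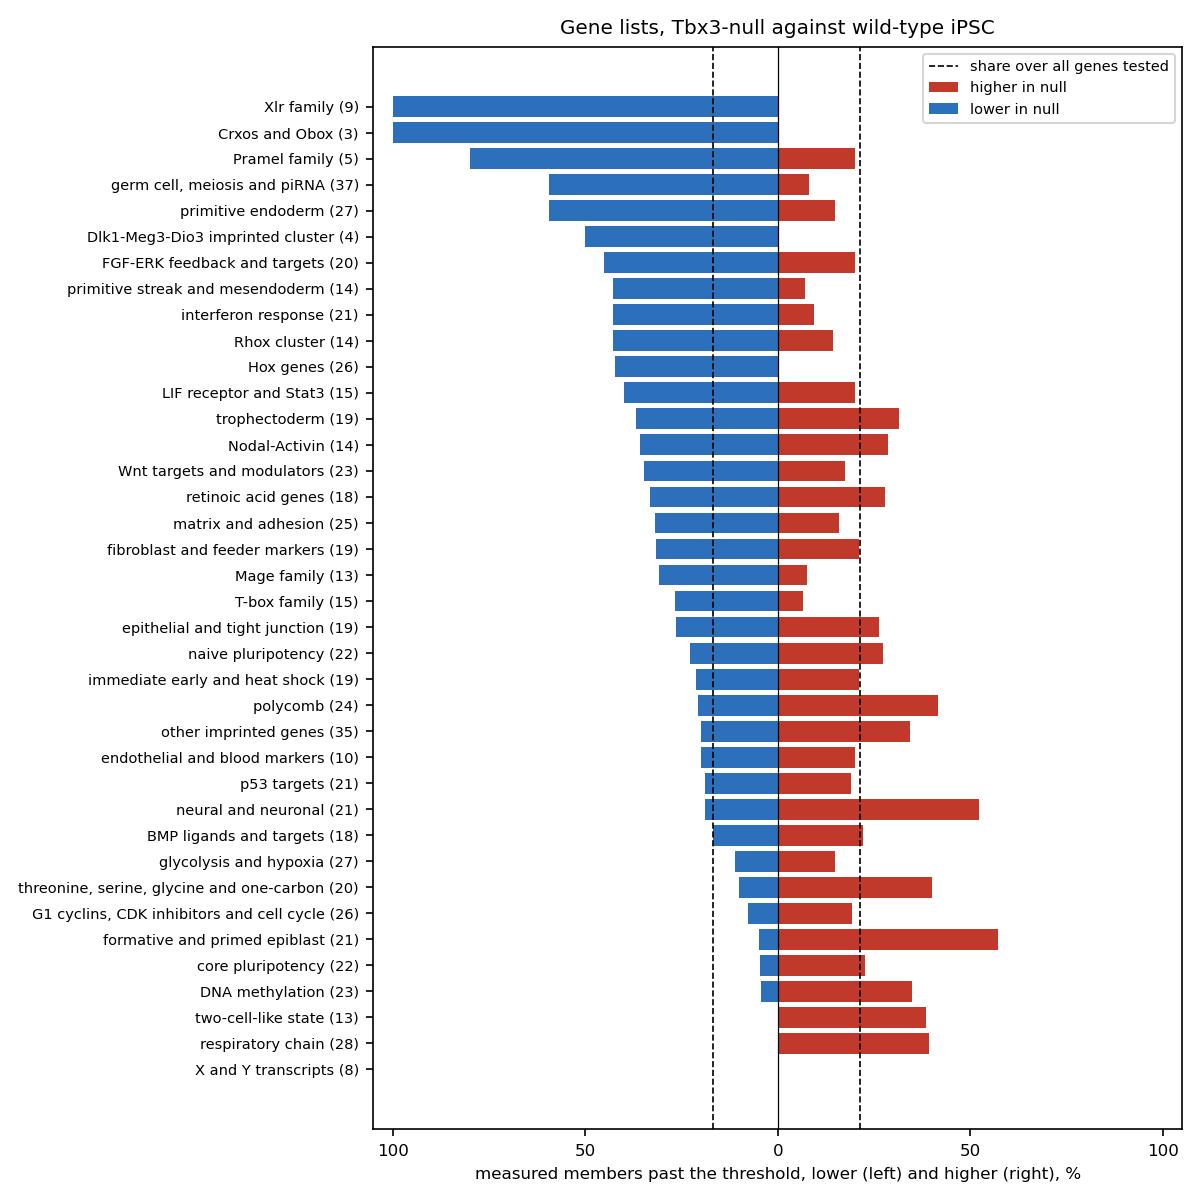
Share of the measured members of each gene list (number in parentheses) that passed as lower (blue, to the left) or higher (red, to the right) in Tbx3-null iPSC, in percent. Dashed lines mark the shares over all genes tested, 16.9% lower and 21.4% higher. The Xlr, Crxos and Obox, Pramel, germ cell and primitive endoderm lists extend far beyond the left line, and the formative and neural lists beyond the right one.

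By chromosome, the median difference lay between -0.02 and 0.12 on the autosomes and was 0.00 on the X. On the X, 51 of 665 genes (7.67%) fell at least 4-fold, against 2.83% over all genes. The autosomes ranged from 1.60% on chromosome 2 to 4.11% on chromosome 14. With probes well above background on all 4 arrays the X share was 4.03% against 1.55% over all genes, and with normexp 3.16% against 0.883%. None of the 8 X and Y transcripts listed passed, with the Y-linked Ddx3y at 0.06, Eif2s3y at -0.07 and Uty at 0.21, and Xist, which coats an inactive X, was not well above background on the null arrays. Within 5 Mb of the Tbx3 probe, counting Tbx3 itself as higher, 52 of 155 genes rose (33.5%) and 15 fell (9.68%), with a median of 0.24. The share that fell was 16.9% over all genes and 15.9% on chromosome 5. The share that rose was 21.4% over all genes and 25.2% on chromosome 5. Near Tbx3 it was 25.8% with the iPSC arrays alone (15.4% over all genes) and 23.9% without null array 1 (14.2% over all genes).

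Set beside the mESC arrays, the 5 genes chosen for that purpose differed in how far the contrasts matched. The iPSC contrast is turned here to wild type minus null and set beside Tbx3-high minus Tbx3-low mESC by the labels alone. The Tbx3 probe itself was at -0.32 in the iPSC contrast and 1.33 ± 0.07 in the mESC contrast, whose groups are labelled by Tbx3. Gata6 was higher in wild-type than in null iPSC by 1.91 ± 0.19 and in Tbx3-high than in Tbx3-low mESC by 1.49 ± 0.13, a difference of -0.42 ± 0.23 (limma adjusted p = 0.193). Dppa3 was at -3.37 ± 0.12 in the iPSC contrast and -3.21 ± 0.08 in the mESC contrast, a difference of 0.16 ± 0.14 (limma adjusted p = 0.423). It passed at 0.45 with normexp (0.0322) and at 0.37 with the series table (0.0484). Dazl was higher by 4.08 in wild-type iPSC and by 0.54 ± 0.11 in Tbx3-high mESC, a difference of -3.55 ± 0.18 (limma adjusted p = 5.09e-07). Ina was at -3.65 in the iPSC contrast and -1.39 ± 0.06 in the mESC contrast, a difference of 2.26 ± 0.11 (limma adjusted p = 3.58e-07). The 2 systems lay on different slides, so system and slide cannot be told apart.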

How the data were processed

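RNA of the 4 iPSC arrays was measured on Agilent one-colour arrays. Per the labels' protocols, RNeasy kits gave the total RNA, of which 50 ng per sample was labelled with Cy3. Per the file headers, the authors' Agilent Feature Extraction 10.7.3.1 gave the intensity of each spot as a processed signal, with background subtracted, not scaled across arrays, and with probe positions on mm9. The series table the authors deposited holds log2 values with medians of 6.58 to 6.59 on the iPSC arrays. They correlated at 0.999 with the log2 mean signal, and how they were scaled is unknown here, so they served as an alternative only.

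From the intensities, spots that were no controls and not marked as outliers were averaged per probe as log2, and the 75th percentile of each array was subtracted. A probe was kept if all of its spots were well above background on both arrays of at least 1 genotype, and the brightest probe stood for a gene. Genes were named through the accession (27732 probes), current symbol (3352) or older symbol (301) in RefSeq's GRCm38.p6 table, which served for names only, and otherwise by the array's own name (1378). limma 3.58.1 in R 4.3.3 fitted all 12 arrays by group (8 residual degrees of freedom, eBayes, Benjamini-Hochberg over 17547 genes, threshold 0.05), and the fit was tested on simulated data. Differences are null minus wild type with the moderated SE. Genes named were Tbx3, Gata6, Dazl, Ina, Dppa3 and the 12 largest changes in each direction among passing genes whose groups did not overlap. Up to 4 passing members of each of 38 lists and all core pluripotency and T-box members were added. The 6 widest gaps between null arrays in each direction were added too. Any other gene was named after its values were seen, and a few genes that the rule names are not reported here. These members and lists were chosen with earlier results of these data known. The number of arrays limits the precision. Same-numbered iPSC arrays did not deviate together (r = 0.037), so the numbers were not taken as pairs.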

Additional observations from a re-analysis of the deposited data

Results flagged for a closer look

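3 of the 5 genes set beside the mESC arrays differed between the systems in a test of the difference itself (limma, high minus low in mESC less wild type minus null in iPSC). For Tbx3 the difference was 1.65 ± 0.13: its probe read 1.33 ± 0.07 higher in Tbx3-high than in Tbx3-low mESC, and 0.32 lower in wild-type than in null iPSC. The mESC groups are labelled by Tbx3 itself, and no direction is drawn from the iPSC probe. The Tbx3 difference is therefore not read as a result. For Dazl it was -3.55 ± 0.18, with the same direction in both systems and the larger contrast in iPSC. For Ina it was 2.26 ± 0.11, again with the larger contrast in iPSC. Groups of 2 arrays were not tested for outlying arrays.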

How the results depend on the processing

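Over 15 alternatives, 4 of them leaving out 1 array, 4963 to 7083 genes passed, against 6728. Adding a 2-fold minimum left 2030. Without 1 array, 4963 to 5796 passed in all and 2337 to 2531 as lower. As higher, 2493 (without null array 1) to 3375 passed. Of the 157 named genes that passed, 129 passed in the same direction under every alternative in which they were measured. Dim genes such as Ubd, Nr1h5 and Esr1 were measured in 14 of the 15. The other 28 lost the call under at least 1, 22 of these without 1 array. The replicate block, run although the numbers do not pair the arrays, gave 6548 genes and ended the calls of Tbx3 (0.0637), Tbx6, Acta2, Tie1 and Obox1 among the named genes. It gave the call to Sall4, Foxd3 and Tbr1. The sign turned for Tbx15 with normexp (0.03345) and for Cbx7 with the mean of its probes (-0.002473). The genes at least 2-fold apart between the null arrays numbered 30 with normexp, 40 with the series table and 215 with no filter on dim probes. Between the wild-type arrays they numbered 29, 39 and 230. The X-linked share at least 4-fold lower was 3.16% with normexp, 3.61% with the series table, 5.65% with no filter and 4.03% with all 4 arrays above background. The share of genes near Tbx3 that rose was 25.8% with the iPSC arrays alone and 23.9% to 30.3% without 1 array. The Dppa3 difference between systems passed with normexp (0.45) and with the series table (0.37). Scaling over probes above background moved the share of higher among all calls from 55.9% to 47.5% and normexp moved it to 61.4%. Signals near background limit the dim genes, for which folds are bounds within the main processing only.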

Other observations

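Values by array number were examined after the data had been seen. Genes higher on array 1 than on array 2 in both genotypes made up 26% of all genes tested, and the reverse 23.2%. In 98 genes (0.559%) array 1 was higher by at least 0.5 on the log2 scale in both genotypes, and 5 of them were among the 27 glycolysis and hypoxia genes: Vegfa, Bnip3, Ndrg1, Ankrd37 and Slc16a3. Ankrd37 stood at -0.17 and -0.74 in null and -0.06 and -0.69 in wild-type arrays. Epithelial and tight junction genes were higher on array 1 in both genotypes in 11 of 19 (57.9%), and streak genes higher on array 2 in 10 of 14 (71.4%).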
